A study of Mus musculus with 48 samples.

Results

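The comparison described here sets irradiated against unirradiated primary mouse sarcomas that all received a control antibody, 8 tumours at 20 Gy against 8 at 0 Gy, across every gene counted. These 16 tumours are the samples labelled as primary tumours given isotype antibody, out of 48 sarcomas in the series. The whole study crossed tumour kind (primary or allograft) with the dose to the limb, 0 or 20 Gy, and with the antibody given, either isotype or anti-PD-1, which blocks an inhibitory receptor of T cells. The comparison asks what a single large dose changed in the transcriptome of a tumour that arose in its own host, without immune checkpoint blockade.

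Both groups were p53FL/FL mice of strain 129/SvJae, in which an adenovirus carrying Cre recombinase was injected into the gastrocnemius muscle of the calf to delete the floxed p53 alleles. An injection of 300 µg of the carcinogen MCA (3-methylcholanthrene) followed, and the mice were 6 to 10 weeks old when tumours were induced. At a volume of about 150 mm3 each mouse received 200 µg of isotype control antibody into the peritoneum, directly before 0 or 20 Gy to the whole left hind limb. The irradiated field thus held the surrounding muscle too, and tumours were taken 3 days later. Each primary tumour is a separate induction, and only cells reached by the virus lose p53, so host cells such as leukocytes keep it. The anti-PD-1 tumours used for comparison received the antibody muDX400 in place of the isotype, with 8 tumours per dose. The isotype allografts, 4 per dose, all grew from 50000 injected cells of the single line 402230 in the calf muscle of syngeneic mice.

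Ionising radiation breaks DNA, and a cell with p53 answers by inducing genes such as Cdkn1a that halt the cell cycle. Damaged nuclei can also release DNA into the cytoplasm, where sensors such as cGAS switch on type I interferon and, through it, a large set of antiviral genes. Interferons, cytokines and chemokines then draw in and activate leukocytes, which in a bulk tumour sample add their own RNA to that of the sarcoma cells.

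Totals were 37.7 to 49.2 M (mega) counts per control tumour and 31.8 to 46.5 M counts per irradiated tumour. The means were 42.4 ± 3.7 and 38.5 ± 4.78 M counts (SD, n = 8 each), with p = 0.09 in a two-sided exact permutation test over 12870 splits (adjusted over 4 measures 0.175). The number of genes with at least 1 count was higher after irradiation, at a mean of 24700 ± 677 against 23400 ± 720 (exact permutation p = 0.00357, adjusted 0.0143). The first principal component of the 500 most variable genes held 36% of their variance and did not separate the doses. The second held 16.2%, and on it 6 of 8 irradiated tumours lay at 6.1 or above beside 2 of 8 controls. Some tumours stood apart. Irradiated tumours 1 and 4 summed 20730 and 55460 CPM (counts-per-million, with TMM factors applied to library sizes) over 20 adult skeletal muscle genes, against at most 10030 CPM in any other tumour. Control tumour 4 summed 382 CPM over 19 T cell and NK cell genes where the other controls held 39.1 to 93.3 CPM, and irradiated tumour 5 held 723 CPM. Replicate numbers only name tumours, in order of accession. Levels are in CPM and given as the lowest, median and highest of a group of 8 tumours, controls first. They compare a gene between tumours, not one gene with another. A bare value in parentheses after a gene is its log2 fold change, 20 Gy against 0 Gy, and adjusted p-values are edgeR's.

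Radiation changed 2575 of 17770 genes tested (14.5%) at an adjusted p below 0.05 in edgeR's quasi-likelihood F test. Of these, 1395 (7.85% of genes tested) were higher at 20 Gy and 1180 (6.64%) were lower. The changes upward were the larger ones. The median log2 fold change was 1.42 among the higher genes and −0.64 among the lower ones, and more than 4-fold changes were counted for 343 higher and 49 lower genes. In 271 of the called genes every irradiated tumour lay above the highest control, and in 76 every irradiated tumour lay below the lowest control. The biological coefficient of variation was 0.5, and without irradiated tumour 5 the count of called genes was 1706 (1104 higher and 602 lower).

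**Figure D1:**
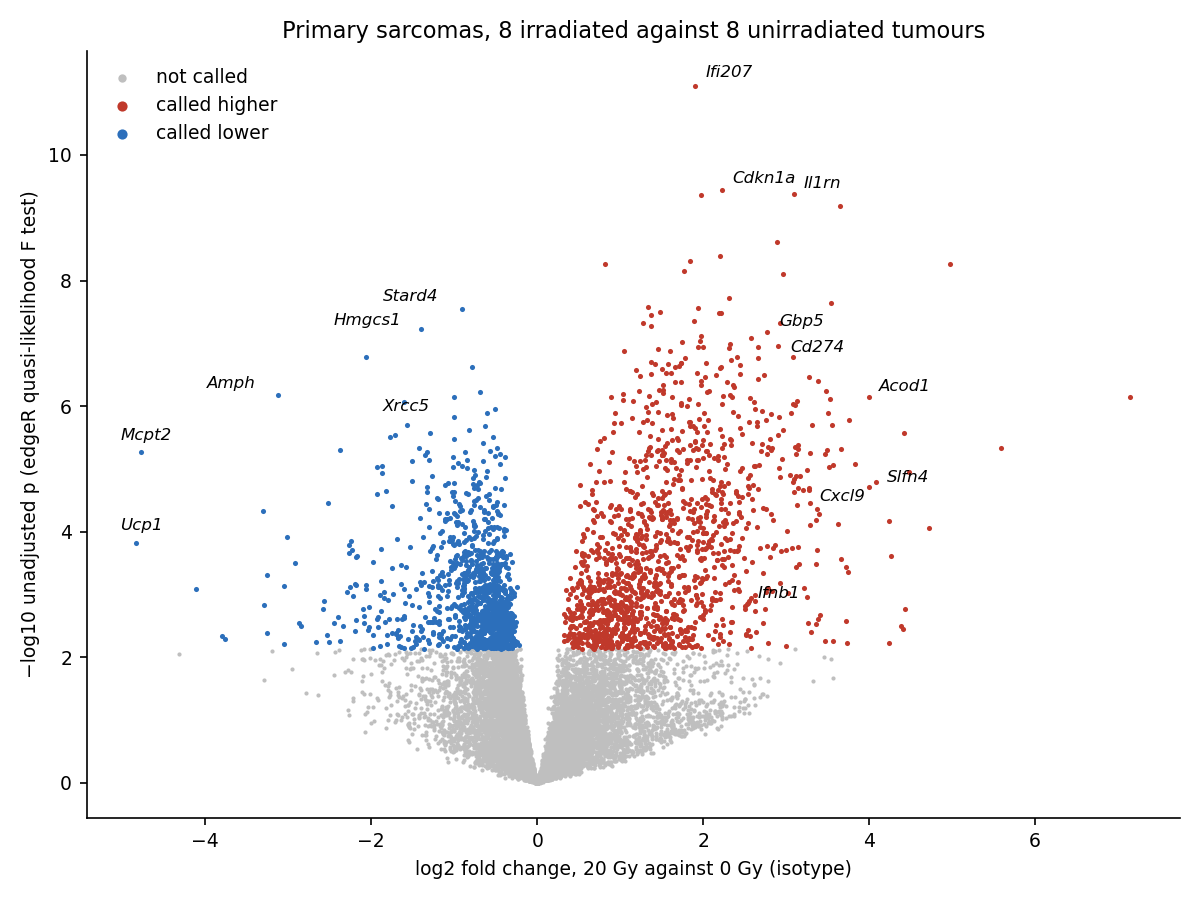
Each point is a gene tested, with the log2 fold change (20 Gy against 0 Gy, isotype) on the horizontal axis and −log10 of the unadjusted edgeR p on the vertical axis. Red points are the 1395 genes called higher and blue points the 1180 called lower; the genes with the smallest p, led by Ifi207, Cdkn1a and Il1rn, are red.

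The smallest p belonged to Ifi207 (ENSMUSG00000073490), a member of the interferon-inducible PYHIN family. Its level was 23.9, 30.8 and 34.7 CPM in the controls and 93.1, 103.2 and 139.1 CPM in the irradiated tumours. The groups were far apart and each was narrow (log2 fold change 1.91, SE 0.18, adjusted p 1.4e-07). Several of the other higher genes with the smallest p are known interferon targets. The Schlafen genes Slfn8 (1.98), Slfn2 (2.20) and Slfn1 (2.97), which act in leukocytes and in the antiviral response, rose with SEs of 0.22, 0.27 and 0.38. Slfn4, of the same family, had a log2 fold change of 4.09, from 2.43, 8.59 and 99.4 CPM to 138.6, 303 and 797 CPM. Even control tumour 4, the highest control, held less Slfn4 than the lowest irradiated tumour. Ifi204 (1.85), a PYHIN DNA sensor, and Herc6 (2.31), a ligase for the ubiquitin-like protein ISG15, rose too. Il18bp (2.89), which neutralises interleukin 18, rose in every irradiated tumour beyond the highest control. Rnf31, the catalytic subunit of the linear ubiquitin ligase in NF-kappaB signalling, changed least of these (0.82, SE 0.10), and its groups were still separate, at 25.001, 29.2 and 38.1 CPM and 45.0, 50.8 and 74.0 CPM.

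All 24 genes of the type I interferon response list rose, and their median log2 fold change was 2.03, beside −0.02 over all genes tested. Their summed level was 531 to 4909 CPM in the controls and 3784 to 9552 CPM after 20 Gy. Control tumour 4, at 4909 CPM, lay within the irradiated range, and the other 7 controls stayed at or below 1828 CPM. The list holds effectors, transducers and regulators. Among effectors Oas3 and Oas2, which make the second messenger that activates RNase L, rose by 2.66 and 2.41 (SE 0.41 and 0.36). Among transducers Irf7, the factor that amplifies interferon production, went from 49.99, 131.7 and 738 CPM to 756, 1135 and 1312 CPM. No irradiated tumour fell within the control range for Irf7 (log2 fold change 2.47, SE 0.43, adjusted p 0.000291). Stat2, a subunit of the factor that binds interferon-stimulated promoters, was at 39.8, 65.3 and 215 CPM in the controls and 219.8, 269.8 and 336 CPM after irradiation. The highest control for Stat2 was again tumour 4 and lay just below the lowest irradiated tumour (1.73, SE 0.26, adjusted p 7.37e-05). Without control tumour 4 and irradiated tumour 5 all 24 genes were still called, with a median of 2.62.

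The promoters of Stat2 and of Gbp5, an interferon gamma target described next, are shown because they hold the core of the interferon-stimulated response element. RefSeq promoters (GRCm38.p6, 250 bases before to 50 after the transcription start) were matched by symbol to 12672 of the 17770 genes tested, giving 16024 promoters of 12616 distinct RefSeq symbols. The motif GAAANNGAA, searched on both strands, was in 7.48% of all these promoters, in 18.8% of those of genes called higher and in 4.99% of those of genes called lower. It was in 57.9% of the 19 promoters of the type I interferon list and in 45.5% of the 22 promoters of the interferon gamma list. These promoters cover 18 of 24 and 18 of 22 genes of the lists. Capitals mark the match, which lies on the opposite strand in both, 221 bases before the Stat2 start (chr10:128270248-128270547, + strand) and 164 before that of Gbp5 (chr3:142496684-142496983, + strand).
Stat2: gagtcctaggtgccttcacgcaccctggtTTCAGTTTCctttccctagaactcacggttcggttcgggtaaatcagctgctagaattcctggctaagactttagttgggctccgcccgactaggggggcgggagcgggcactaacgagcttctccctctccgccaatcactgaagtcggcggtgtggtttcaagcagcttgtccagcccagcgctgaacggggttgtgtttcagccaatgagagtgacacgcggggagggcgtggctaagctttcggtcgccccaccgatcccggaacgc
Gbp5: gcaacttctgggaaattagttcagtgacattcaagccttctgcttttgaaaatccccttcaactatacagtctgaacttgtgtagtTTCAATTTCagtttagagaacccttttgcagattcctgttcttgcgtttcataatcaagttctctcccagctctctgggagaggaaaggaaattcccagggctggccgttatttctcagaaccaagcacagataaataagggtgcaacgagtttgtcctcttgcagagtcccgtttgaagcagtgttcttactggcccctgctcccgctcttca

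Genes of the interferon gamma response and MHC class I presentation rose as well, 21 of 22, with a median log2 fold change of 1.70. Gbp5, a guanylate-binding protein of cell-autonomous defence, was at 7.596, 14.4 and 29.7 CPM in the controls and 82.4, 99.98 and 231 CPM after 20 Gy. The ranges were separate by a wide margin (2.77, SE 0.39, adjusted p 4.33e-05). Gbp3 (2.23) and the immunity-related GTPase Irgm1 (2.07) rose too, and Gbp10 reached 3.99. Cd274 (ENSMUSG00000016496) encodes PD-L1, the ligand through which a tumour restrains T cells. Its levels were 3.15, 5.62 and 20.4 CPM in the controls and 31.8, 52.4 and 104.3 CPM in the irradiated tumours. Every irradiated tumour was above the highest control, and irradiated tumour 5 was the highest of all (2.90, SE 0.42, adjusted p 5.63e-05). Tapbp, which loads peptide onto MHC class I, rose by 1.31, with 7 of 8 irradiated tumours above the highest control. The chemokine Cxcl9, which attracts activated T cells, went from 15.6, 34.3 and 132.1 CPM to 212, 518 and 1608 CPM without overlap (3.27, adjusted p 0.000986). Ubd, an interferon-inducible ubiquitin-like modifier, had a log2 fold change of 3.66, but irradiated tumours 4 and 8 lay within its control range.

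The member of that list that was not called was Ciita, the master regulator of MHC class II, at 15.4, 24.5 and 65.6 CPM and 7.48, 32.3 and 212 CPM (1.18, adjusted p 0.234). The 8 MHC class II genes likewise gave 0 calls in edgeR at a median of 0.82, with 2 at an unadjusted p below 0.05 and 1 called higher by DESeq2. Their sum spanned 527 to 9851 CPM after irradiation, with the lowest value in irradiated tumour 8 and the highest in irradiated tumour 5. The class II chaperone Cd74 had values of 366, 529 and 1304 CPM in the controls and 181, 669.8 and 2665 CPM after irradiation (0.62, adjusted p 0.499). The irradiated range for Cd74 enclosed the whole control range.

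Of 18 nucleic acid sensors and interferon receptors tested, 11 rose and 0 fell (median 0.71). Zbp1, a sensor of Z-form nucleic acid, went from 14.1, 37.4 and 138.9 CPM to 173, 259 and 301 CPM (2.44, SE 0.38). Samhd1, which degrades the building blocks of DNA (1.56), Dhx58, a cytoplasmic RNA sensor (1.84), Tlr3, an endosomal RNA receptor (1.65), and the RNA editor Adar (1.15) rose as well. Ifnb1, the gene of interferon beta itself, was scarce. It was at 0, 0.0614 and 0.573 CPM in the controls and 0.161, 0.556 and 1.29 CPM in the irradiated tumours (2.53, SE 0.72, adjusted p 0.0171). Control tumour 4 was far above the other controls for Ifnb1, and 4 of 8 irradiated tumours exceeded it. The interferon gamma receptor chain Ifngr1 was not called, at 0.24 (adjusted p 0.507).

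**Figure D2:**
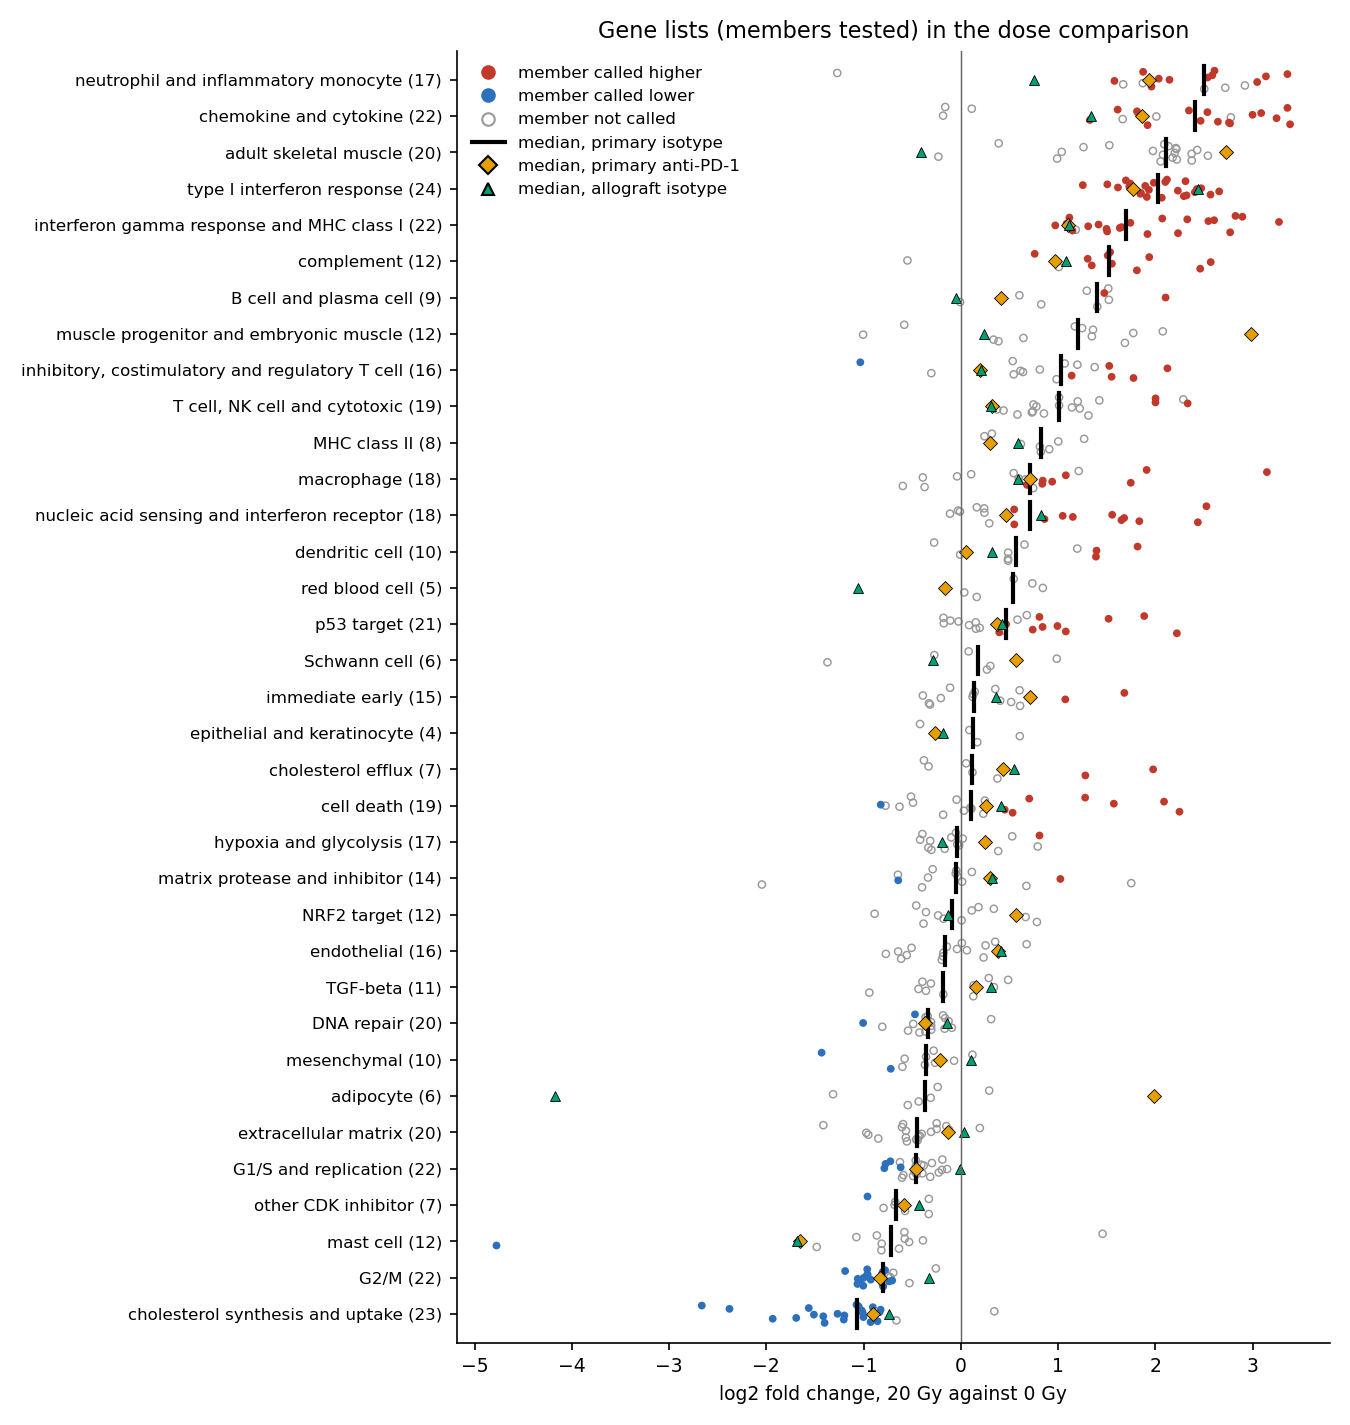
Each row is a gene list with the number of members tested, and each circle is a member at its log2 fold change (20 Gy against 0 Gy, isotype), filled red or blue where called higher or lower and open where not called. Black bars are list medians here, diamonds those of the anti-PD-1 primary tumours and triangles those of the isotype allografts; all 24 type I interferon genes lie right of 0 and 22 of 23 cholesterol synthesis and uptake genes left of it.

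Secreted signals rose broadly: 15 of 22 chemokine and cytokine genes were called higher and 0 lower, with a median of 2.41. Il1rn (ENSMUSG00000026981), the natural antagonist of the interleukin 1 receptor, was at 4.56, 7.02 and 17.5 CPM in the controls and 37.1, 66.6 and 119.5 CPM after irradiation. The highest control, again tumour 4, lay well below the lowest irradiated level (3.09, SE 0.34, adjusted p 1.95e-06). Chemokines for monocytes and T cells rose as well. Ccl3 had the largest change of the list, from 0.272, 0.598 and 2.03 CPM to 3.46, 5.58 and 28.7 CPM (3.39), while Ccl5 (2.76), Ccl7 (2.64) and the cytokine Tnf (2.35) rose less. Cxcl12, the constitutive chemokine of stromal cells and the most abundant uncalled member, had 434, 507 and 699 CPM and 99.3, 474 and 716 CPM (−0.18, adjusted p 0.718). Acod1, which makes the immunomodulatory metabolite itaconate in activated macrophages, rose by 3.99 with every irradiated tumour above the controls.

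The Il1rn promoter (chr2:24345041-24345340, GRCm38.p6, + strand) is shown because Il1rn had the smallest p of its list among members holding the kappaB letters GGGNNTTTC. The match, in capitals, begins 29 bases after the RefSeq start. This motif, on either strand, was in 4.34% of all promoters, in 7.39% of those of genes called higher, in 4.65% of those called lower and in 43.8% of the 16 promoters of the chemokine and cytokine list. These 16 promoters cover 14 of the list's 22 genes.
Il1rn: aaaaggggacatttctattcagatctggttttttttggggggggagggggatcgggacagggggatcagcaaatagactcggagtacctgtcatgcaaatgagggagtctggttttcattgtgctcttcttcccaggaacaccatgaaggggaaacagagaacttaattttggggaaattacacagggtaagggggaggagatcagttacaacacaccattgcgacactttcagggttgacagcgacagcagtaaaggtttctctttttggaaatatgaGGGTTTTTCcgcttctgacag

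Myeloid genes rose in part. Of 17 neutrophil and inflammatory monocyte genes 11 were called higher, with a median of 2.50. Ly6c2, a marker of inflammatory monocytes, was at 5.505, 15.2 and 106.7 CPM and 61.1, 175 and 425 CPM, and 7 of 8 irradiated tumours were above the highest control (3.05, SE 0.59). Clec4e, a receptor for debris of dead cells (3.14) and the formyl peptide receptors Fpr1 (2.15) and Fpr2 (2.04) rose too. Neutrophil genes stood on both sides of the threshold. The receptor of the growth factor G-CSF, Csf3r (1.96), and the collagenase Mmp8 (3.36) were among those called. The 5 uncalled genes with estimates above 0 were S100a8 (2.50), S100a9 (2.72), Cxcr2 (2.92), Retnlg (1.67) and Lcn2 (1.87). Mmp9 was the one member with an estimate below 0 (−1.27, adjusted p 0.276), and control tumour 1 held 1985 CPM of it where the other controls had at most 357 CPM.

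Of 18 macrophage genes 8 were called higher (median 0.71), a count that is less stable, since it was 4 or 5 when any of control tumours 1, 2, 3, 4, 6 and 8 or irradiated tumours 1, 3, 5 and 6 was left out, and 3 without control tumour 4 and irradiated tumour 5 together. Fcgr1, an activating Fc receptor that interferon induces, rose from 38.5, 53.8 and 132.7 CPM to 144.3, 234 and 337 CPM with no overlap (1.75, SE 0.30). Mertk, a receptor for engulfing dead cells, rose by 0.94. The pan-macrophage marker Adgre1 (F4/80) was at 124.6, 136.8 and 194 CPM and 148, 235 and 341 CPM and missed the threshold (0.75, adjusted p 0.1), as did Spp1 (0.54, adjusted p 0.631). Of the 18 estimates 14 were above 0. The others, none of them called, were Csf1r (−0.37), Mrc1 (−0.60), Cd163 (−0.39) and Lyve1 (−0.04). Complement genes, made by macrophages and stroma, were higher in 10 of 12 cases at a median of 1.52. Cfb of the alternative pathway (2.57) and the anaphylatoxin receptor C3ar1 (1.51) each separated the groups completely, and C4b was not called (1.01, adjusted p 0.0974). The coagulation factor gene F10 also rose (3.55, SE 0.61).

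The pan-leukocyte gene rose as well. Ptprc, the common leukocyte antigen CD45, was at 68.5, 80.1 and 146 CPM in the controls and 101.1, 162 and 347 CPM in the irradiated tumours. Of the irradiated tumours 6 exceeded the highest control (1.09, SE 0.32, adjusted p 0.0195), and the call was lost without irradiated tumour 5 or 6. In bulk RNA, more cells of a type and more RNA per cell cannot be told apart. The part of Ptprc-expressing cells in the interferon, chemokine and complement results was not tested.

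Of 19 T cell, NK cell and cytotoxic genes 3 were called higher and 0 lower (median 1.01), where 7.85% of all genes tested were called higher. The number was 0 without irradiated tumour 5, 5 without irradiated tumour 8 and 7 without control tumour 4. Gzmb, a granzyme that kills target cells, was at 4.76, 8.89 and 115.4 CPM in the controls and 38.4, 72.3 and 178 CPM after irradiation. Apart from control tumour 4, every control lay below every irradiated tumour, and control tumour 4 lay above 6 of them (2.002, SE 0.61, adjusted p 0.0247). Gzma (2.33) and the NK receptor Klrk1 (2.003) were the other called members. Cd8a, which marks cytotoxic T cells, was at 1.19, 2.76 and 10.96 CPM and 0.884, 4.89 and 12.4 CPM, with broad overlap (0.44, SE 0.68, adjusted p 0.7). Ifng was at 0.0227, 0.0682 and 0.443 CPM and 0.0680, 0.620 and 2.74 CPM (2.29, adjusted p 0.0586), and irradiated tumour 5 gave the top value. The perforin gene Prf1 was not called (1.20, adjusted p 0.198).

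Among 16 genes of inhibitory receptors, costimulation and regulatory T cells 5 rose and 1 fell (median 1.03). The inhibitory receptors Lag3 (1.55) and Havcr2 (1.14), the interleukin 2 receptor chain Il2ra (2.13), Ctla4 (1.78) and the costimulatory receptor Tnfrsf18 (1.53) were higher. The call of Tnfrsf18 was lost in 9 of 27 other settings. Entpd1, an ectoenzyme that degrades extracellular ATP, was lower (−1.03, adjusted p 0.0178), a call that was lost without irradiated tumours 1 and 4 and without control tumour 3; in the latter case 3 genes of the list were called, all higher. Pdcd1, the gene of PD-1 itself, had 0.612, 1.78 and 5.31 CPM and 0.703, 3.06 and 14.7 CPM (0.98, adjusted p 0.315), and Foxp3, the regulatory T cell factor, had 0.772, 1.26 and 3.60 CPM and 0.589, 1.45 and 8.85 CPM (0.81, adjusted p 0.407). For both the ranges overlapped.

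Small counts of calls stood in 3 further immune lists, beside the 7.85% of all genes called higher and 6.64% called lower. Of 9 B cell genes tested 2 rose, the inhibitory coreceptor Cd22 from 4.68, 7.90 and 12.8 CPM to 14.5, 22.9 and 32.9 CPM (1.48) and Pax5 (2.11). Of 10 dendritic cell genes 3 rose, namely the chemokine Ccl22 (1.82), the homing receptor Ccr7 (1.40) and the factor Batf3 (1.39), and without irradiated tumour 5 the number was 1. The 7 uncalled genes were Ccl17 (1.20), Siglech (0.655), Flt3 (0.49), Xcr1 (0.49), Clec9a (0.49), Zbtb46 (−0.006) and Cd209a (−0.27). The call of Ccr7 was lost in 12 of 27 other settings. Mast cell genes gave 0 higher and 1 lower call among 12 (median −0.72), and 1 of each without control tumour 7. That gene was Mcpt2 (ENSMUSG00000022226), a mast cell protease. It was at 1.93, 4.56 and 52.6 CPM in the controls and 0.0227, 0.213 and 1.49 CPM in the irradiated tumours, so no irradiated tumour reached the lowest control (−4.77, SE 0.87, adjusted p 0.000411). The tryptase Tpsab1 of the same cells was at 16.2, 102.6 and 398 CPM and 3.88, 37.0 and 289 CPM with wide overlap (−0.86, adjusted p 0.481).

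**Figure D3:**
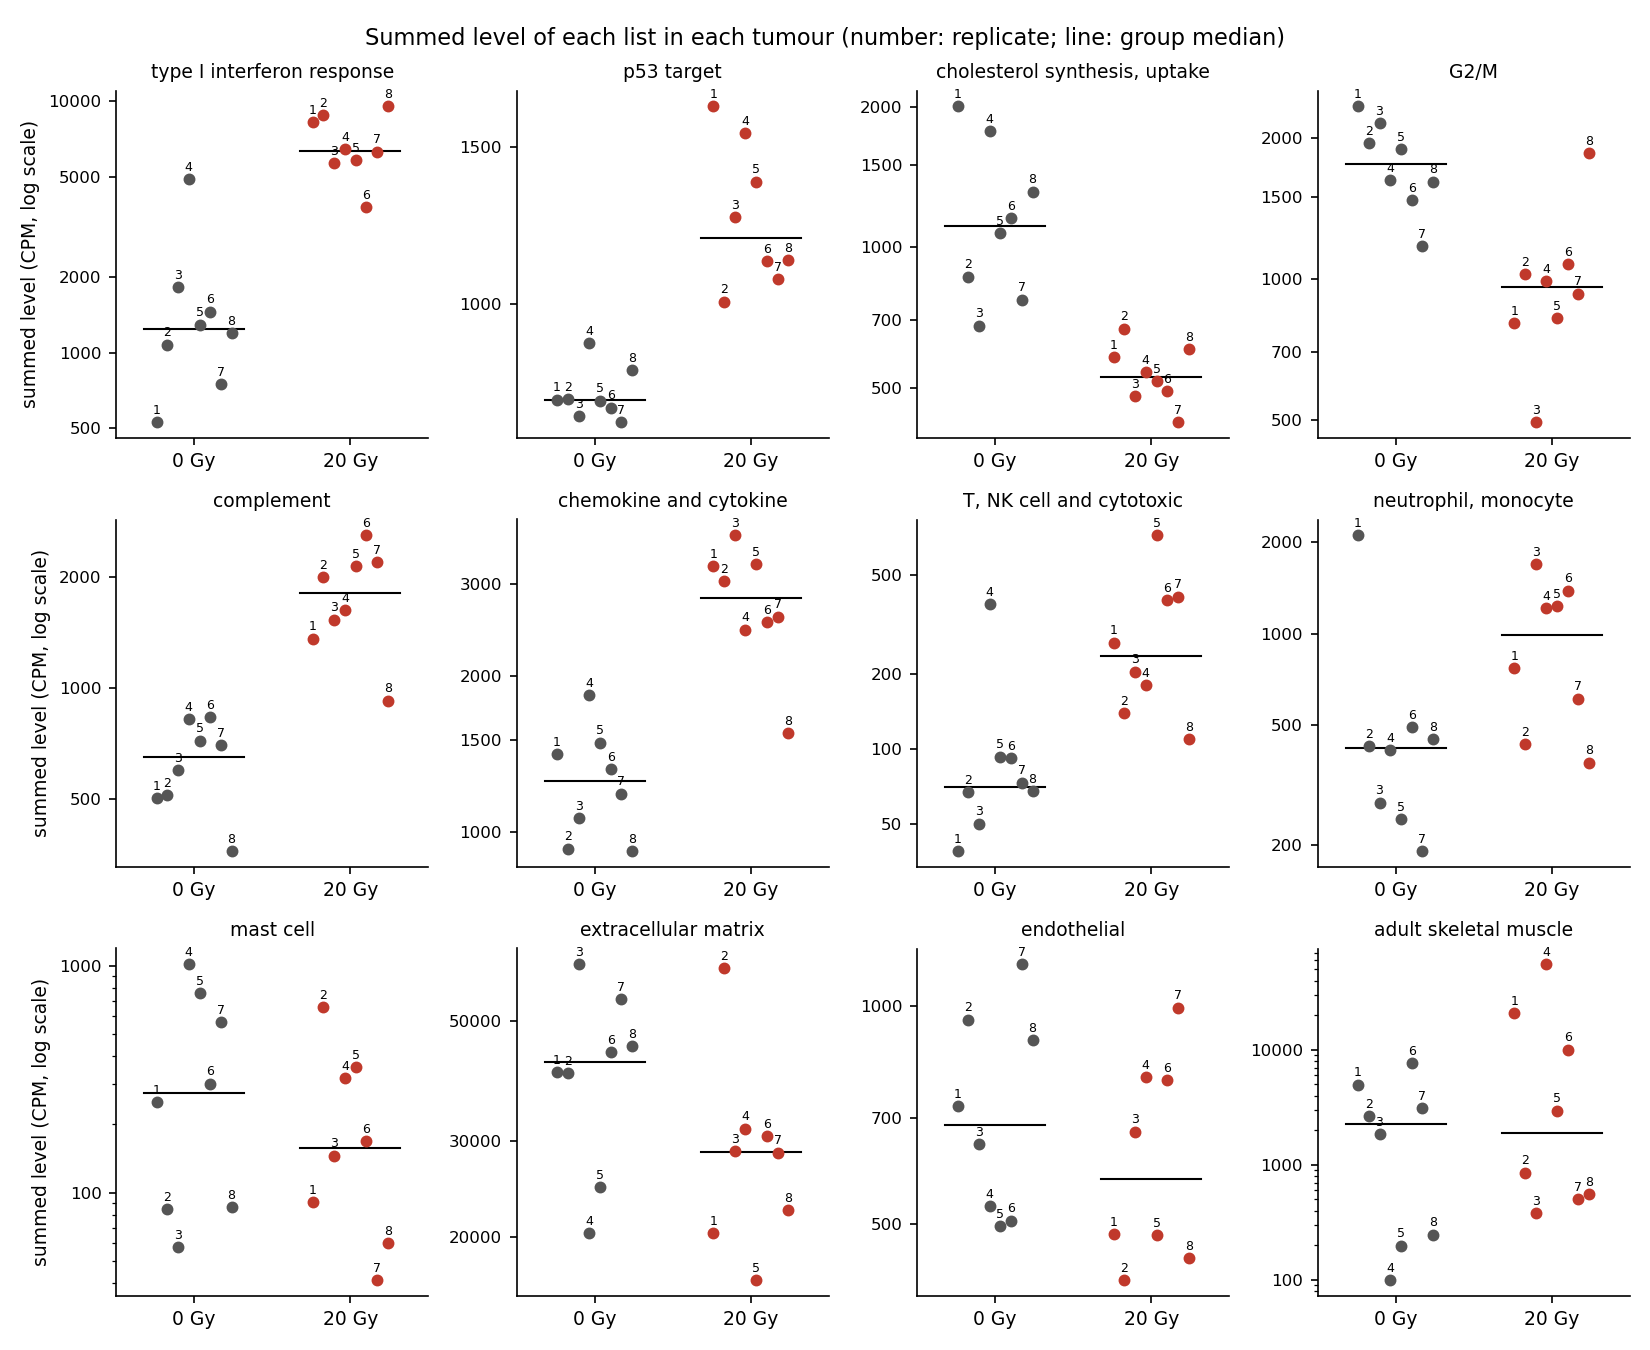
Each panel shows the summed level of 1 gene list (CPM, log scale) in the 8 control tumours at 0 Gy and the 8 irradiated tumours at 20 Gy, with the replicate number at each point and a line at the group median. Cholesterol synthesis genes separate the doses completely (at least 680 CPM in controls and at most 670 CPM after 20 Gy), control tumour 4 lies high for the interferon and T cell lists, and irradiated tumours 1 and 4 hold most muscle transcripts.

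Genes known as p53 targets rose in part, in tumours started by deleting p53 from the cells that Cre reached. Trp53 itself was at 20.02, 24.9 and 28.0 CPM in the controls and 24.1, 29.0 and 60.5 CPM after irradiation (0.53, adjusted p 0.0648). The ranges overlapped, and since counts cover the whole gene they do not show whether the deleted exons were transcribed. Of 21 p53 target genes 10 were called higher and 0 lower (median 0.47), and 6 without control tumour 4 and irradiated tumour 5. Cdkn1a (ENSMUSG00000023067), the p21 inhibitor of cyclin-dependent kinases, had the second smallest p of all genes. Its level was 27.9, 44.2 and 85.4 CPM in the controls and 178, 209.9 and 277 CPM after 20 Gy. The lowest irradiated tumour held more than 2-fold the highest control (2.22, SE 0.25, adjusted p 1.95e-06). The stress cytokine Gdf15 (1.89), the death receptor Fas (1.52), the stress protein Trp53inp1 (0.99) and the apoptosis effector Bax (0.74) followed. Mdm2, the ligase that degrades p53, rose by only 0.40 (SE 0.12, adjusted p 0.0209), from 45.1, 60.7 and 81.3 CPM to 70.1, 83.2 and 86.2 CPM. Rps27l missed the threshold (0.68, adjusted p 0.0838). Which cells gave this RNA was not tested, and leukocyte RNA measured by Ptprc was higher in the same tumours.

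Of 7 other genes of cyclin-dependent kinase inhibitors 0 were called higher and 1 lower (median −0.67), beside 7.85% and 6.64% of all genes. That gene, Cdkn3, fell from 7.45, 9.71 and 21.5 CPM to 3.86, 6.55 and 7.20 CPM, with every irradiated tumour below the lowest control, but its adjusted p of 0.04995 lay at the threshold and the call was lost in 22 of 27 other settings. Cdkn2a, which encodes p16 and p19ARF, was at 649, 788 and 1531 CPM and 352, 506 and 853 CPM and was not called (−0.79, adjusted p 0.121).

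Of 19 cell death genes tested 7 rose and 1 fell (median 0.11). Gsdmd, the pore-forming effector of pyroptosis, went from 28.3, 32.8 and 46.0 CPM to 57.8, 77.1 and 123.6 CPM without overlap (1.28, SE 0.18), and the inflammatory caspases Casp1 (1.57) and Casp4 (2.09) rose more. The survival genes Bcl2a1b (2.25) and Mcl1 (0.53) were also higher, Bok was lower (−0.82, adjusted p 0.0481, a call lost in 20 of 27 other settings), and Bak1 was not called (0.10, adjusted p 0.647). Bcl2a1b belongs to a cluster of near-identical copies, so its counts are uncertain. The number called was 5, all higher, without irradiated tumour 5, without control tumour 7 or without irradiated tumours 1 and 4.

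Of 20 DNA repair genes tested 0 rose and 2 fell (median −0.34), close to the 6.64% called lower over all genes. Xrcc5 (ENSMUSG00000026187), which encodes the Ku80 subunit that binds broken DNA ends, was at 31.5, 42.8 and 56.0 CPM in the controls and 14.8, 21.6 and 28.0 CPM after irradiation. Every irradiated tumour lay below the lowest control (−1.004, SE 0.17, adjusted p 0.000199). Its partner Xrcc6 (Ku70) was not called (−0.31, adjusted p 0.227). Mre11a, a nuclease subunit, fell by less (−0.47, adjusted p 0.0401), and that call was lost in 21 of 27 other settings. Without irradiated tumour 8, which had the highest summed level of the list (610 CPM), 5 genes were called lower.

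Of 22 G2/M genes, which drive mitosis, 16 fell and 0 rose (median −0.80). Cdc25c, the phosphatase that starts mitosis, had the smallest p. It was at 9.94, 14.7 and 22.1 CPM in the controls and 3.53, 6.48 and 8.50 CPM after 20 Gy, with no overlap (−1.19, SE 0.25, adjusted p 0.00179). The cyclins Ccnb2 (−1.06) and Ccna2 (−1.003), the spindle motor Kif11 (−0.97) and the scaffold Iqgap3 (−0.96) each had 7 of 8 irradiated tumours below the lowest control. Mki67, the proliferation marker, was at 75.9, 166 and 245 CPM and 46.4, 101.1 and 121.3 CPM (−0.80, adjusted p 0.0315). Its ranges overlapped, since control tumours 4, 5 and 7 were low, and its call was lost in 11 of 27 other settings. Cdk1 was not called (−0.53, adjusted p 0.21). Irradiated tumour 8 stood apart within its group, with a G2/M sum of 1857 CPM where the others had 497 to 1077 CPM. The number called was 9 without irradiated tumour 5, 10 without irradiated tumour 3 or control tumour 3, 8 without irradiated tumours 1 and 4, and 10 without control tumour 4 and irradiated tumour 5 together.

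Of 22 G1/S and replication genes 4 fell and 0 rose, at a median of −0.46, where 6.64% of all genes tested were called lower. The difference from the G2/M list was not tested. The 4 genes were the ribonucleotide reductase subunits Rrm1 (−0.79) and Rrm2 (−0.62), the DNA polymerase alpha subunit Pola1 (−0.77) and the methylation maintenance factor Uhrf1 (−0.72). The replication clamp Pcna was at 84.4, 132.8 and 176 CPM and 93.6, 108.9 and 145 CPM and was not called (−0.14, adjusted p 0.69). The number called was 8 without irradiated tumour 8, and 2 without irradiated tumour 3, control tumour 1, control tumour 3, irradiated tumours 1 and 4 together, or control tumour 4 and irradiated tumour 5 together.

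The Iqgap3 promoter (chr3:88081801-88082100, GRCm38.p6, + strand) illustrates an element found near many mitotic genes, the cell cycle genes homology region with the letters TTTGAA. The match, in capitals, lies on the opposite strand and begins 19 bases before the start. This short motif was in 12.8% of all promoters on either strand, in 16% of those of genes called higher, in 15% of those of genes called lower, and in 70.6% of the 17 promoters of the G2/M list. These 17 promoters cover 17 of the list's 22 genes. Without the 50 bases after the start the share of the G2/M list was 47.1%, beside 11.4% of all promoters. The E2F letters TTTGGCGC or TTTCCCGC were in 2.56% of all promoters and in 38.1% of the 21 promoters of the G1/S list. These 21 promoters cover 19 of the list's 22 genes.
Iqgap3: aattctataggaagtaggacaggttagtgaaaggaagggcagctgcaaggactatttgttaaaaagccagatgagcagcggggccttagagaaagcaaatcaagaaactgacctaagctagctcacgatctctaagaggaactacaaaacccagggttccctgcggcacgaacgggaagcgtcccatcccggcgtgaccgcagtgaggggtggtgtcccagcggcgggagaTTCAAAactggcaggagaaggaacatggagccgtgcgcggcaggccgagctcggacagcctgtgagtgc

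Of all 35 lists, cholesterol synthesis and uptake had the largest share of members called lower. The lists were chosen with earlier results of these data known, so this rank is only a description. Cells make cholesterol from acetyl-CoA through a chain of enzymes that the factor SREBP2 switches on together. Of 23 genes 21 fell and 0 rose, at a median of −1.07 beside −0.02 over all genes. Their summed level was 680 to 2007 CPM in the controls and 423 to 670 CPM in the irradiated tumours, so that all 8 irradiated tumours lay below every control. The 2 uncalled genes were Pmvk (−0.66) and Ebp (0.35, adjusted p 0.117), and Ebp was the only member with an estimate above 0.

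Enzymes along the chain fell together. Hmgcs1 (ENSMUSG00000093930), which makes the substrate of the rate-limiting reductase, was at 55.0, 105.7 and 168 CPM in the controls and 29.7, 38.2 and 51.9 CPM after irradiation. The lowest control, tumour 2, lay just above the highest irradiated tumour, also numbered 2 (−1.40, SE 0.20, adjusted p 4.11e-05). Stard4, a carrier that moves sterol between membranes, had the smallest p of all lower genes and went from 38.2, 55.5 and 69.8 CPM to 26.0, 28.7 and 31.97 CPM (−0.90, SE 0.12, adjusted p 2.97e-05). Every irradiated tumour lay below the lowest control for Stard4, and the irradiated range was the narrower of the groups. Cyp51, a sterol demethylase, fell too (−1.51). Pcyt1b, an enzyme of phosphatidylcholine synthesis outside this list, fell without overlap as well (−2.07, SE 0.31).

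Of 7 cholesterol efflux genes tested 2 rose and 0 fell, at a median of 0.12, and the difference from the synthesis list was not tested. Nr1h3, the sterol receptor LXR alpha, went from 2.01, 4.73 and 7.07 CPM to 6.83, 20.01 and 23.8 CPM (1.98, SE 0.28) and the exporter Abcg1 from 32.2, 48.1 and 84.0 CPM to 88.5, 114.3 and 180.1 CPM (1.28, SE 0.28). For Abcg1 the groups did not overlap, and for Nr1h3 a single irradiated tumour lay within the control range. Apoe was not called (−0.33, adjusted p 0.617). Both Nr1h3 and Abcg1 are also expressed by macrophages, whose marker list is given above, and the part of macrophages in these values was not tested.

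The Hmgcs1 promoter (chr13:119690101-119690400, GRCm38.p6, + strand) is the one among the 18 RefSeq promoters of the list that holds the sterol regulatory letters TCACNCCAC. These 18 promoters cover 15 of the list's 23 genes. The match, in capitals, lies upstream of the start. These letters were in 1.14% of all promoters on either strand, in 1.29% of those of genes called higher and in 1.69% of those called lower. The CCAAT box, letters CCAAT, was in 83.3% of the list's promoters and in 37.0% of all, and also in 88.2% of those of the G2/M list, 76.2% of the G1/S list and 59.1% of the interferon gamma list.
Hmgcs1: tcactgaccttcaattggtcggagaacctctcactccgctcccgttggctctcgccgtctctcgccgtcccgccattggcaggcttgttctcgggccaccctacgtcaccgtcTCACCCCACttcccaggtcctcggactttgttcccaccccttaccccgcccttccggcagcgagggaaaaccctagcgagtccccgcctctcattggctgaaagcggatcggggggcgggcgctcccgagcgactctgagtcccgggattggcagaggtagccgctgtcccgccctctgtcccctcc

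**Figure D4:**
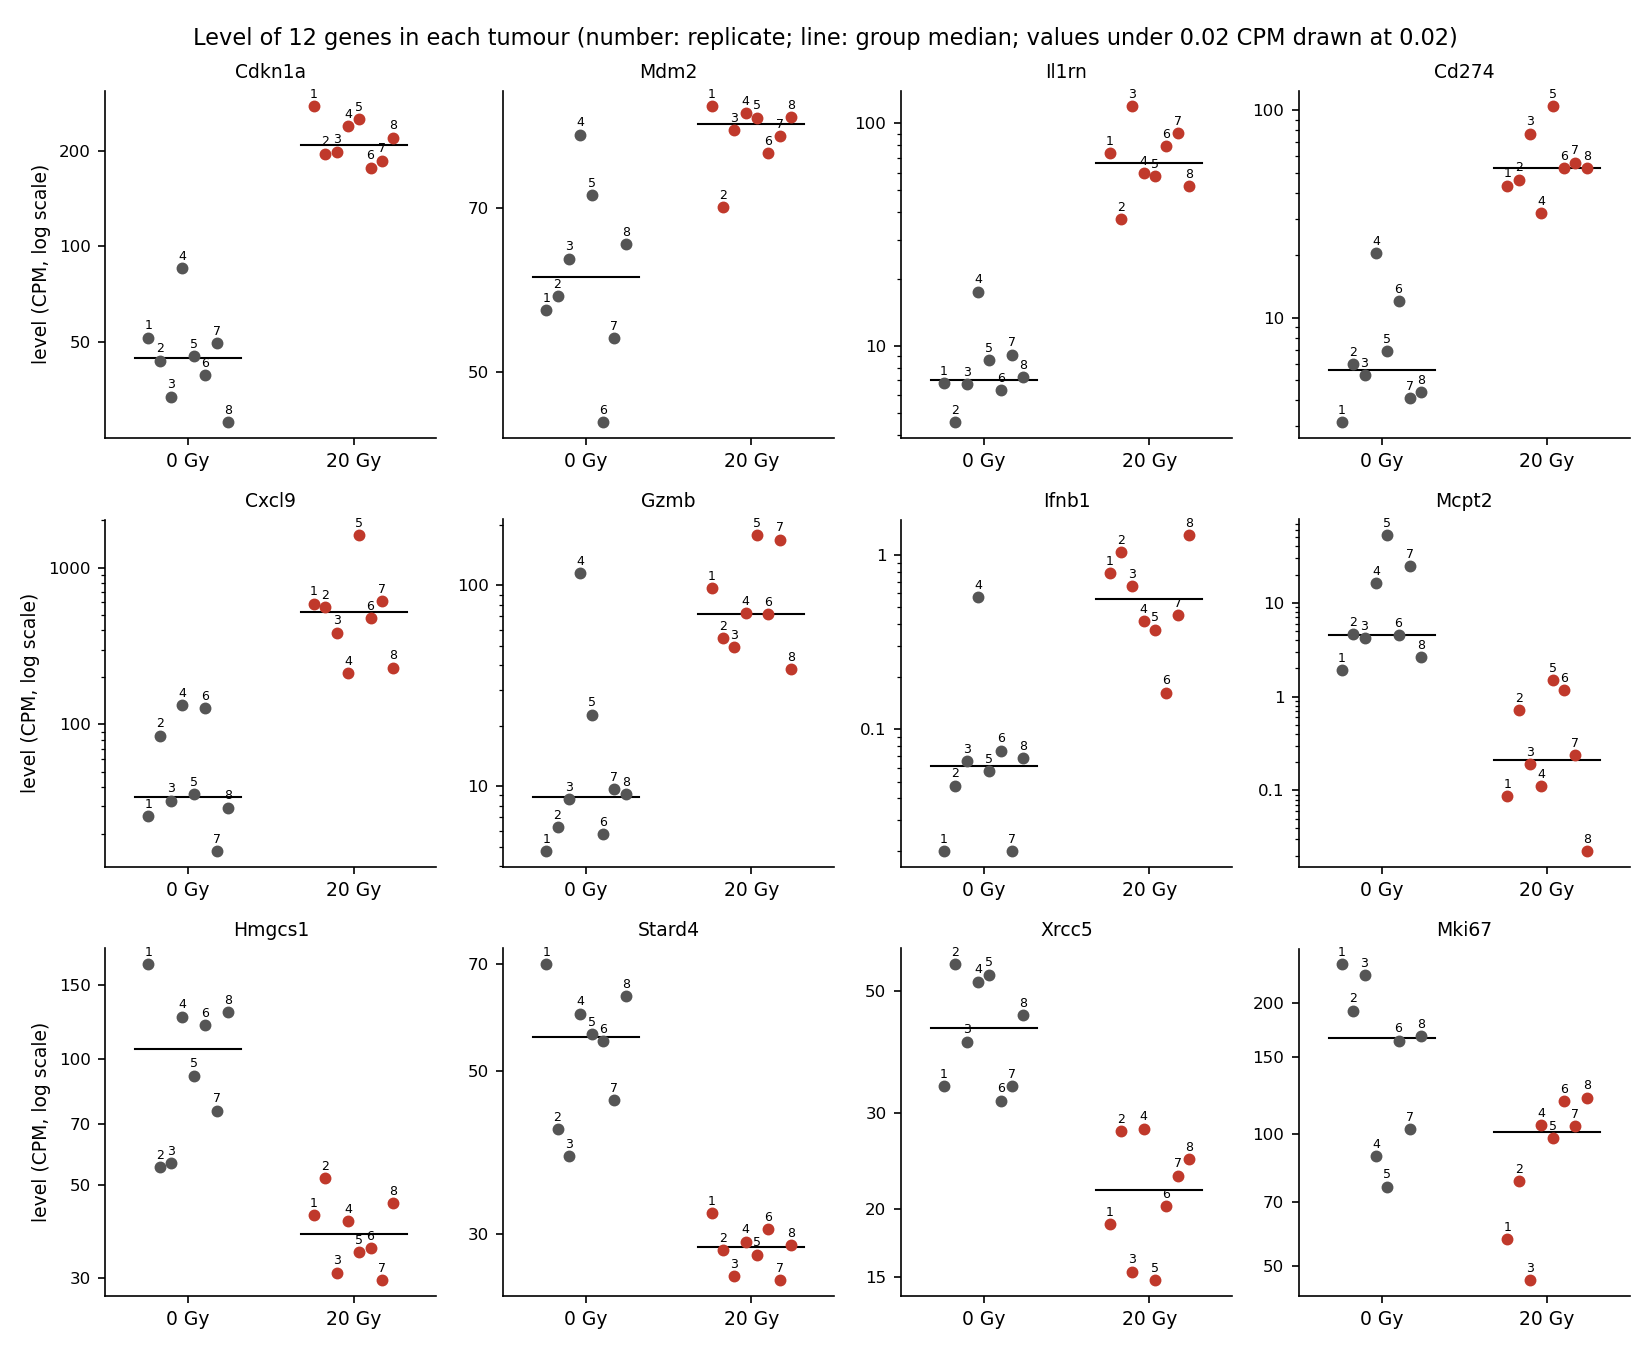
Each panel shows the level of 1 gene (CPM, log scale) in the 8 control tumours and the 8 irradiated tumours, with replicate numbers and a line at the group median; values under 0.02 CPM are drawn at 0.02. Cdkn1a, Il1rn, Cd274 and Cxcl9 lie wholly higher at 20 Gy and Hmgcs1, Stard4, Mcpt2 and Xrcc5 wholly lower, while Gzmb and Ifnb1 overlap through control tumour 4 and Mki67 through control tumours 4, 5 and 7.

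Of 20 extracellular matrix genes 0 were called by edgeR or DESeq2 (median −0.45, 3 at an unadjusted p below 0.05), and the sums were 20310 to 63510 CPM in the controls and 16650 to 62530 CPM after irradiation. Col3a1, a fibrillar collagen, was at 5167, 6276 and 13613 CPM and 2696, 4848 and 12767 CPM (−0.46, adjusted p 0.454). Of 14 matrix proteases and inhibitors, Timp1 rose (1.02, adjusted p 0.0419) and the membrane protease Mmp14 fell (−0.64, adjusted p 0.00938), and the call of Timp1 was lost in 10 of 27 other settings. These calls, 1 of 14 in each direction, are close to the shares over all genes (7.85% called higher and 6.64% lower). Of 10 mesenchymal genes Vim, the intermediate filament of these cells, fell from 2922, 4319 and 5899.9 CPM to 1766, 2426 and 3845 CPM (−0.72, SE 0.20), and Fap fell (−1.43), a call lost in 16 of 27 other settings. The mesenchymal marker Pdgfra was detected throughout, at 392.1, 703 and 1270.5 CPM and 250.1, 445 and 1118 CPM (−0.60, adjusted p 0.23). The 16 endothelial genes gave 0 calls in edgeR (median −0.16), with 2 at an unadjusted p below 0.05 and 1 called higher by DESeq2. The most abundant of them, Cdh5, the cadherin of vessel walls, had 69.1, 152 and 349 CPM and 41.1, 72.5 and 405 CPM (−0.61, adjusted p 0.371).

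Skeletal muscle genes were unevenly spread. The 20 adult muscle genes had a median log2 fold change of 2.11 with 0 calls in edgeR or DESeq2 and 0 at an unadjusted p below 0.05. The median of their summed level was 2250 CPM in the controls and 1905 CPM after irradiation, with the highest sums in irradiated tumours 1 and 4. Without those tumours the list's median was −0.06, and the fast myosin gene Myh4, at 11.01, 550.0 and 1767 CPM and 2.65, 334 and 14992 CPM, had 2.18 with all tumours and −0.026 without them. Without them 1939 genes were called in all (1307 higher and 632 lower), with all 24 type I interferon genes and 20 of 23 cholesterol genes among them. With the summed muscle level as a covariate 2489 genes were called. The 12 muscle progenitor and embryonic muscle genes tested gave 0 calls in edgeR or DESeq2, and 0 at an unadjusted p below 0.05, at a median of 1.21. The most abundant of them, Des, at 2.08 (adjusted p 0.211) with all tumours, was −0.013 without irradiated tumours 1 and 4.

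In the lists that follow, the calls are to be read beside the 7.85% of all genes called higher. Of 17 hypoxia and glycolysis genes 1 rose, the glycolytic regulator Pfkfb4 (0.81, adjusted p 0.0339), whose call was lost in 12 of 27 other settings, and of 12 targets of the oxidative stress factor NRF2 0 were called. Of 15 immediate early genes 2 rose, Atf3, a factor of the stress response, from 3.52, 6.91 and 16.1 CPM to 18.4, 26.2 and 44.8 CPM without overlap (1.68), and Egr2 (1.08). The 11 TGF-beta pathway genes gave 0 calls, and their target Tgfbi had 0.29 (adjusted p 0.453). Adipocyte (6 genes), Schwann cell (6), red blood cell (5) and epithelial (4) markers gave 0 calls each. In these 6 lists with 0 edgeR calls DESeq2 also called 0, and an unadjusted p below 0.05 was seen for 3 NRF2, 3 TGF-beta and 1 Schwann cell gene.

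Beyond these lists, the lower genes with the smallest p came from varied functions. Sema7a, a membrane-anchored semaphorin, went from 346, 629 and 1098 CPM to 166, 216 and 275 CPM (−1.61, SE 0.26). Sfxn1, which carries serine into mitochondria (−1.01), Rcn2, a calcium-binding protein of the endoplasmic reticulum (−0.79), and Lztr1, an adaptor for the degradation of RAS proteins (−0.60), separated the groups completely. Mapk3, the kinase ERK1, fell (−0.68, SE 0.11), with 6 of 8 irradiated tumours below the lowest control. Amph, an endocytic adaptor of synapses, was at 1.79, 8.62 and 24.4 CPM and 0.544, 1.17 and 2.14 CPM (−3.13, SE 0.50), with 7 of 8 irradiated tumours below the lowest control.

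Some of the largest falls rested on few controls. Ucp1, the uncoupling protein of brown fat, had 0.142, 1.27 and 47.7 CPM in the controls and 0.116, 0.217 and 0.503 CPM after irradiation (−4.83, SE 1.12). Control tumour 5 alone held 47.7 CPM and the ranges overlapped. Colec10, a secreted lectin, was at 0.0907, 0.522 and 54.6 CPM and 0.0680, 0.451 and 1.92 CPM (−4.11, SE 1.11), and its call was lost without control tumour 5, with the muscle covariate and with limma voom weights. Fam135b (−3.80) was high in control tumours 6 and 7 and was lost in 12 of 27 other settings. Nefl, the light neurofilament, had 11.5, 105.6 and 665 CPM and 4.22, 15.9 and 80.1 CPM (−3.26), with control tumours 4 and 5 far above the rest. Dgkk, a diacylglycerol kinase, was low in all irradiated tumours, at 0.0907, 0.799 and 2.46 CPM beside 2.32, 10.2 and 20.6 CPM (−3.30, SE 0.70). The rise of Coch, a secreted matrix protein, did not rest on single tumours in this way, at 0.122, 0.568 and 1.20 CPM and 1.48, 5.29 and 21.7 CPM (3.83).

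The same dose comparison was made in 16 other primary tumours that carried anti-PD-1. There edgeR called 1407 genes (7.92%), 1077 higher (6.06%) and 330 lower (1.86%). Of the 2575 genes called with isotype, 2493 (96.8%) had the same sign with anti-PD-1 and 944 were called in both. These 944 were 36.7% of the isotype calls and 67.1% of the anti-PD-1 calls. Of the genes higher with isotype 722 (51.8%) were called again, and of those lower 222 (18.8%), a contrast that was not tested. Their medians with anti-PD-1 were 0.96 and −0.34, beside 1.42 and −0.64 with isotype. The genes were selected by their isotype call, so smaller medians and fewer calls in the other arm can come from that selection alone. These values are therefore not a measure of a weaker response with anti-PD-1. No same-sign share over all genes tested stands beside the 96.8%. The difference between antibody arms was tested itself, as an interaction of dose and antibody. edgeR called 0 genes for it, and DESeq2 called 1. In edgeR 756 of 17770 genes had an unadjusted p below 0.05, fewer than the 1 in 20 that chance gives.

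By group of genes, 23 of 24 type I interferon genes were called with anti-PD-1 (median 1.77) and 17 of 23 cholesterol genes were called lower (median −0.90). The other lists with at least 10 calls in the isotype arm had 13 of 22 interferon gamma and MHC class I genes called (median 1.10), 14 of 22 chemokine and cytokine genes (1.86), 10 of 17 neutrophil and monocyte genes (1.94), 8 of 18 nucleic acid sensors (0.47), 7 of 21 p53 targets (0.37), 4 of 12 complement genes (0.97) and 10 of 22 G2/M genes, lower (−0.83). Among inhibitory and regulatory T cell genes 1 of 16 was called (0.20). Cdkn1a (2.46), Ifi207 (1.87), Gzmb (2.24) and Mcpt2 (−4.54) had log2 fold changes with anti-PD-1 close to those with isotype. Xrcc5 had −0.39 there (adjusted p 0.157), Amph −0.72 (adjusted p 0.365) and Cxcl9 1.83 (adjusted p 0.0623), and none of these differences between arms passed the interaction test. Colec10 had the opposite sign with anti-PD-1, 1.46 (adjusted p 0.406), with no call there.

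**Figure D5:**
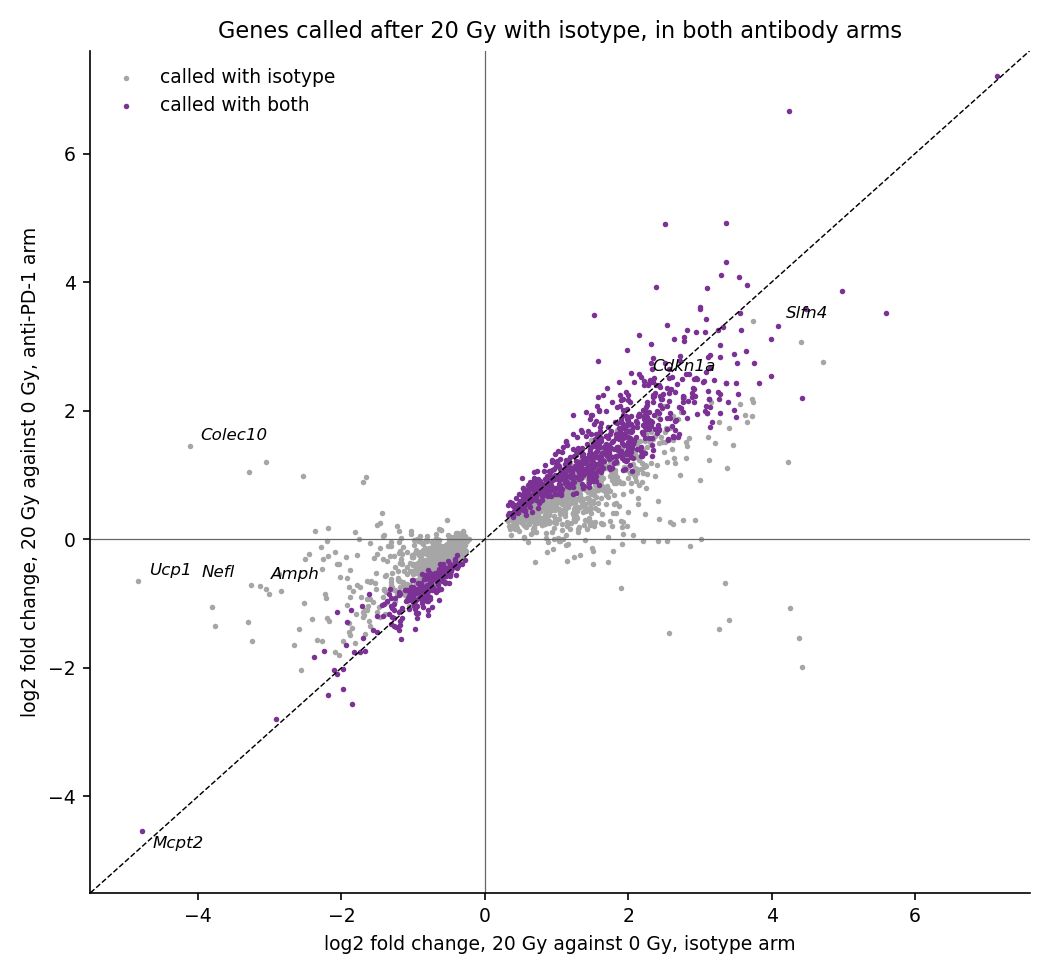
Each point is 1 of the 2575 genes called in the isotype comparison, with its log2 fold change at 20 Gy against 0 Gy in the isotype arm on the horizontal axis and in the anti-PD-1 arm on the vertical axis. Purple points are the 944 genes called in both arms, the dashed line marks equal change, and 96.8% of points have the same sign on both axes.

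In the isotype allografts, 4 tumours per dose, 912 of 17746 genes were called (5.14%), 780 of them higher (4.4% of genes tested) and the others lower (0.744%). Of the 2528 primary isotype calls tested in the allografts, 2097 (83%) had the same sign there. These genes too were selected by their call in the primary tumours, and no share over all genes stands beside the 83%. In the allografts all 24 type I interferon genes were called (median 2.44), as were 4 of 17 neutrophil and monocyte genes (0.75). Lower calls there covered 1 of 22 G2/M genes (−0.33) and 11 of 23 cholesterol genes (−0.74). Cdkn1a had 1.79 there, Cd274 1.75, Mcpt2 −3.86 and Hmgcs1 −0.88. The interaction of tumour kind and dose called 1 of 19327 genes in edgeR, with 1914 at an unadjusted p below 0.05, and 5 in DESeq2. The gene was Swap70, a signalling protein of B cells and mast cells, whose log2 fold change was −0.32 in the primary tumours and 0.60 in the allografts. Group sizes differ between the tumour kinds, so counts of calls in them are not a measure of a difference in response. Leaving out single allografts moved their count between 294 (without control 2) and 1415 (without control 3).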

How the data were processed

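RNA was sequenced with a stranded poly(A) kit, per the labels' protocols, from tumours with an RNA integrity number above 7. The authors deposited raw counts per Ensembl gene (36854 genes, 48 columns, none of an unlisted sample). The submitters' processing notes name Trimmomatic 0.36, STAR, HTSeq and the build mm10; the strand setting is not given in the sources used here, so antisense and overlapping genes are uncertain. Symbols came from GENCODE M21 by identifier (36796 genes named).

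Counts of the 32 primary tumours entered 1 edgeR 4.0.16 fit (R 4.3.3) with a coefficient per group, TMM scaling, filterByExpr and Benjamini-Hochberg adjustment over 17770 genes. A gene is called at an adjusted p below 0.05. The SE is the log2 fold change divided by the square root of F. Allografts had a fit of their own, and the interaction with tumour kind used all 48. The analysis was tested on simulated counts, with changes planted in genes averaging above 1 CPM. It recovered 20.9% of 1.5-fold, 64.2% of 2-fold and 87.9% of 4-fold changes, with 5 false calls. At these depths counting error is small beside the spread between tumours except well below 1 CPM. Nothing says that RNA was extracted more than once per tumour, so p-values measure the spread between tumours. No batch is named in the labels.

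Genes were named by rule: the 10 higher and 10 lower with the smallest p and the 6 with the largest change in each direction, leaving out predicted genes and those averaging under 5 CPM in both groups; in each of 35 lists up to 5 called members, any that moved against the rest and the most abundant uncalled one; and a panel of 14 genes. Some genes taken by this rule are not reported here. Other members are named where a count of 5 or fewer covers them, and Csf3r and Mmp8 beside such a count, after their values were seen. So are the macrophage genes with estimates below 0 and the 7 uncalled dendritic cell genes. The members and lists were chosen with earlier results of these data known. Lists are described by counts and medians without a test. Alternatives were DESeq2 1.42.0, its size factors and upper-quartile factors in edgeR, 2 other filters, other sets of tumours, limma 3.58.1 voom weights, a muscle covariate and leaving out tumours; leaving out the muscle-rich and the T cell-rich tumours was added after seeing the data. Promoters came from RefSeq (GRCm38.p6). Motif shares and figures used Python 3.11.15, pandas 2.3.3, numpy 2.4.6 and matplotlib 3.10.9.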

Additional observations from a re-analysis of the deposited data

Results flagged for a closer look

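Single tumours lay far from the rest of their group by Dixon's criterion in 16 of 166 groups of values tested (9.64%), where chance gives about 1 in 20. Control tumour 4 was the highest control for nucleic acid sensing and interferon receptor genes (1251 CPM, others 895 to 1038), for T cell and NK cell genes (381.6 CPM, others 39.1 to 93.3) and for Ifnb1 (0.573 CPM, others 0 to 0.0753), and the lowest for TGF-beta pathway genes (1631 CPM, others 2499 to 3282). Control tumour 1 held 2111 CPM of neutrophil and monocyte genes (others 191.9 to 491.7), and control tumour 5 held 5296 CPM of macrophage genes (others 2046 to 2752). Control tumour 7 was highest for matrix proteases (5584 CPM, others 3216 to 3918) and lowest for G1/S genes (1135 CPM, others 1523 to 1972), and control tumour 6 had a mitochondrial share of 1.62% (others 0.371 to 0.949%).

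Among irradiated tumours, tumour 5 was highest for Il18bp (121.4 CPM, others 49.0 to 69.1) and Ifng (2.74 CPM, others 0.068 to 0.725). Tumour 8 was highest for Rnf31 (73.96 CPM, others 45.0 to 53.8) and for epithelial genes (26.8 CPM, others 9.94 to 15.95). Tumour 6 was lowest for Ifi204 (120.6 CPM, others 168.1 to 217.4), tumour 2 for Mdm2 (70.1 CPM, others 78.3 to 86.2) and tumour 7 for cholesterol efflux genes (890.7 CPM, others 1217 to 1547).

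Swap70 was singled out because the dose effect differed between tumour kinds in the interaction test of edgeR, by −0.916 on the log2 scale (primary minus allograft, adjusted p 0.0393).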

How the results depend on the processing

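The count of 2575 genes was 3045 in DESeq2, 4137 with limma voom weights, 3532 with all 48 tumours in the fit, 2173 with only the groups compared, 2084 with no filter, 2403 with upper-quartile factors and 1939 or 1854 without the muscle-rich or the T cell-rich tumours; leaving out single tumours gave 1706 to 3091, the lowest without irradiated tumour 5. The share of higher calls, 54.2%, was 47.5% with limma voom weights (1967 higher, 2170 lower), 50.3% with all 48 tumours, 63.4% with upper-quartile factors, 64.7% with no filter and 64.9% with only the groups compared. The anti-PD-1 count was 2188 in DESeq2, 2156 with all 48 tumours and 822 with only the groups compared. The allograft count was 1530 in DESeq2, 372 with all 48 tumours and 294 to 1415 leaving out single tumours. The interaction with antibody called 1 gene in DESeq2, and that with tumour kind 5 in DESeq2 and 0 with DESeq2 size factors or upper-quartile factors in edgeR, no filter, the muscle covariate or only the groups compared. The cause of these shifts was not tested.

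Of the called genes taken by the naming rule, 90 kept the call in each of the 27 other settings that tested them (26 for Ifnb1) and 26 lost it in at least 1, with no change of sign. Besides those given with the genes, Rrm2 lost it in 9 settings, Uhrf1 in 8, Ucp1 and Nefl with limma voom, Gzma and Mmp14 with only the groups compared, Batf3, Vim and Trp53inp1 without the T cell-rich tumours. Myh4, not called, changed sign with the muscle covariate (−0.25) and without the muscle-rich tumours (−0.026), as did Des without them (−0.013). Of the other uncalled genes taken by the rule, Zbtb46, close to 0 throughout (at most 0.080), changed sign in 17 settings, Hbb-bs (0.84) in 1, with limma voom, and Krt10 (0.088) in 1, without irradiated tumour 3. The medians of 10 of 35 lists, of which adult muscle had the farthest from 0, changed sign in at least 1 setting. In the 250 bases before the start alone, the interferon motif was in 6.43% of all promoters and 47.4% of those of the type I list (57.9% with the bases after the start), and the E2F letters in 28.6% of those of the G1/S list, where the interferon gamma list (45.5%) and the CCAAT share of the cholesterol list (83.3%) did not move. No paired analysis was possible because replicates were numbered in order of accession and the labels pair no tumours. At a biological coefficient of variation of 0.5, changes well under 2-fold are seen least surely. Of simulated 2-fold changes 64.2% were recovered, so a gene not called may still have changed.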
